A study of Xenopus laevis with 74 samples.

Results

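Neural and endodermal explants of the frog Xenopus laevis were compared at stage 10.5, early in gastrulation. The comparison was formed from the lineage and stage labels, which gave 6 of the 74 libraries of the series, 3 neural and 3 endodermal. All libraries came from wild-type animal caps, the ectoderm at the animal pole of the blastula, which was cut from the embryo at stage 8 to 9 while its cells are still pluripotent. Neural explants received 100 ng/uL of the BMP antagonist Noggin and endoderm explants 160 ng/uL of the TGF-beta ligand Activin, as the sample labels give the doses, whereas the study's methods give the same figures per mL. Both proteins were recombinant, so transcripts of the ligand genes do not check the treatment. Untreated explants of the same stage, which the study calls epidermal, had 3 libraries and serve as the baseline. Explants of this stage given a recombinant BMP heterodimer, at 20 ng/uL by the labels, are the study's ventral mesoderm and had 3 libraries too. They were sequenced on another instrument than the other lineages and enter only an alternative fit with all stage 10.5 libraries. Each library pooled several explants, and embryos were obtained from a single frog per day. The methods place the Noggin explants in a low calcium and magnesium medium and the Activin explants in a full saline, both with albumin as a carrier, so that ligand and medium cannot be told apart in any difference below. Since whole explants were measured, fewer cells of a type and less RNA per cell cannot be told apart either.

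Activin acts as Nodal does, through activin receptors that phosphorylate Smad2 and Smad3, and a high dose turns animal cap cells to mesendoderm by way of T-box, Mix/Bix, Gata and Sox17 factors. BMP signals phosphorylate Smad1 and Smad5 and direct the same cells to epidermis through Ventx, Gata, Tfap2 and Dlx factors. Noggin binds BMP ligands outside the cell, and ectoderm that is shielded from BMP keeps its SoxB1 factors and becomes neural.

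The 6 libraries had 14507679 to 16840514 reads counted on genes, where all 74 had 11938338 to 23215739. Levels are given as TPM, transcript abundances scaled to gene length and library size, and the tests were run on the counts, with replicates 1, 2 and 3 in that order wherever 3 values are listed. X. laevis is allotetraploid, and the L and S homeologs of a gene are rows of their own. A row was called where edgeR's quasi-likelihood test gave an adjusted p (Benjamini-Hochberg) not above 0.05. The first principal component of the 6 libraries held 69.5% of the variance and separated the lineages, and the second held 10.6% and followed the replicate number, with coordinates of 28.4, -7.93 and -23.2 in neural and 22.7, -3.23 and -16.7 in endoderm libraries.

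The labels were checked against marker genes. Endoderm markers summed to 49.2 to 115 TPM in neural libraries, against 1260 to 1370 TPM in endoderm libraries, with 8 of 16 rows lower in neural explants and 0 higher. Of the 11 neural marker rows 6 were higher and 3 lower in neural explants, and their sums were 1110 to 1360 TPM in neural and 959 to 1180 TPM in endoderm libraries. The untreated libraries summed to 1040 to 1260 TPM on the same rows, so these markers did not set Noggin explants apart from untreated ones at this stage. Mesoderm markers other than brachyury, which has no TPM, were low in both groups, at 18.3 to 21.3 TPM in neural and 17.9 to 23.7 TPM in endoderm libraries. Of the 12 mesoderm marker rows 1 was higher and 2 lower in neural explants. The brachyury row t.S, given below by its counts, was among the lower rows. Epidermis markers summed to 439 to 591 TPM in neural, 328 to 439 TPM in endoderm and 855 to 2270 TPM in untreated libraries. Untreated replicate 1 stood apart from the other untreated libraries, with 100.0, 1.96 and 14.2 TPM of gata2.L and 334, 56.1 and 143 TPM of the BMP target szl in the 3 untreated libraries.

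A total of 2760 of 27424 rows (10.1%) were called between neural and endoderm explants, 1276 higher in neural (4.65%) and 1484 lower (5.41%). Rows lower in neural explants more often differed by a large factor. Among them 264 (17.8%) differed by at least 32-fold, against 52 (4.08%) of the rows higher in neural explants, and the median log2 fold changes of the called rows were -1.95 and 1.79. DESeq2's test called 4279 rows, and 2998 were called in edgeR when replicates were blocked by number. On TPM values limma called 827 rows higher and 1510 lower, a split that leaned further to the lower side. The median of all rows stood at -0.12 on the log2 scale there instead of 0.01, and its part in the split was not tested. With all 12 stage 10.5 libraries in the fit, the untreated and BMP-treated ones included, edgeR called 2328 rows. Leaving out 1 library at a time gave 1478 to 2223 calls, and the counts were 1478 without endoderm replicate 2, 1698 without endoderm replicate 1 and 1748 without neural replicate 2.

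**Figure D1:**
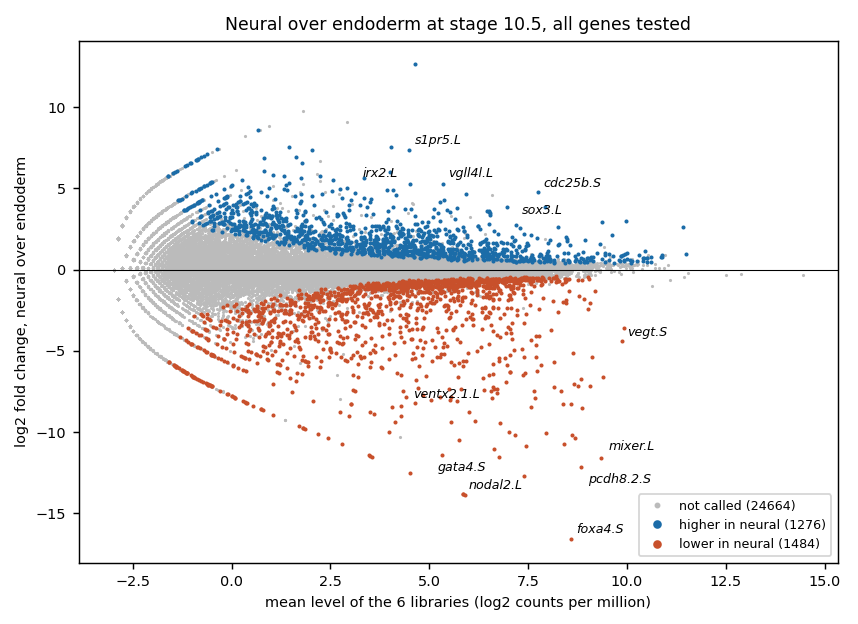
Log2 fold change of neural over endoderm explants (y axis) against the mean level of the 6 libraries in log2 CPM (x axis), with 1 point per gene row. The 1484 rows lower in neural explants (orange) reach further from 0 than the 1276 higher rows (blue). The lowest point is foxa4.S and the highest the unnamed gene model Xelaev18002981m, and the fitted fold of such rows, at 0 counts in 1 group, depends on the prior count.

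The 10 rows with the largest fold below endoderm among those with at least 10 TPM were foxa4.S, xenf, nodal2.L, krt16.S, LOC108705994, mespb.S, pcdh8.2.S, mixer.L, gata4.S and nodal1.S. foxa4.S, a forkhead factor of the organizer and the anterior mesendoderm, had 0, 0 and 0 counts in neural explants, against 13170, 12730 and 12122 counts in endoderm explants, and was at least 3870-fold lower in neural explants when 3 counts per library are taken as the floor. By the same floor xenf was at least 607-fold lower, nodal2.L at least 579-fold, the keratin gene krt16.S at least 573-fold, mespb.S at least 228-fold and nodal1.S at least 117-fold, each with 0 counts in every neural library. gata4.S, a zinc finger factor of endoderm and heart, had 0, 1 and 2 counts in neural explants, against 4013, 3123 and 3621 counts in endoderm explants, a ratio of endoderm to neural depth-scaled counts of 3280 with an exact 95% counting interval of 1120 to 15900. The unnamed LOC108705994 had 2 counts over all neural libraries and a ratio of 7690 (counting interval 2130 to 63500). These intervals and floors cover counting error only. Most of the 10 rows are factors or ligands of the mesendoderm, and the untreated explants had 0 to 3 counts per library for foxa4.S, xenf, nodal2.L, mespb.S, gata4.S, nodal1.S and pcdh8.2.S.

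The 10 rows with the largest fold above endoderm were of another kind, and 5 of them carry no gene name of a known function. s1pr5.L, a receptor for sphingosine 1-phosphate, was at 20.1, 30.4 and 18.2 TPM in neural and 0.07, 0.15 and 0.25 TPM in endoderm explants (log2 fold change 7.37, standard error 0.40, adjusted p = 4.8e-06). Untreated explants had 114, 54.6 and 41.4 TPM of s1pr5.L, above every neural library. vgll4l.L, of a family of cofactors of Tead proteins, was at 158, 109.9 and 94.3 TPM in neural and 1.13, 6.36 and 4.48 TPM in endoderm explants (log2 fold change 5.28, standard error 0.55, adjusted p = 0.001), and at 216, 227 and 134 TPM in untreated explants. Both genes were thus low in Activin explants and present in Noggin and untreated ones. The lipase-related pnliprp1 was at 21.5, 11.1 and 24.9 TPM in neural and 0.37, 0.15 and 1.19 TPM in endoderm explants, and the somatostatin-family gene sst.2 at 12.39, 26.3 and 16.1 TPM in neural and 0, 0.15 and 0.99 TPM in endoderm explants, with log2 fold changes of 6.02 and 5.65. The row named actb with no homeolog suffix had 194, 8 and 98 counts in neural and 2, 0 and 1 in endoderm explants. Whether reads of similar actin genes enter this row was not tested, so its value is uncertain. Its call was lost without endoderm replicate 1 (adjusted p = 0.073), endoderm replicate 2 (adjusted p = 0.09) or endoderm replicate 3 (adjusted p = 0.089).

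In 3 of the remaining rows of that set the count and TPM tables differed widely. LOC108705792 had 550, 492 and 418 counts in neural, 3, 4 and 1 in endoderm and 6, 6 and 10 in untreated libraries, whereas its TPM were 2905, 5035 and 3043 in neural and 1996, 2591 and 1628 in endoderm libraries. The count difference was there at stage 9 as well (log2 fold change 7.31). LOC108710811 had a log2 fold change of 5.67 in counts and 1.46 in mean TPM. Xelaev18010303m had 21, 5 and 8 counts in neural and 0, 0 and 0 in endoderm libraries, at least 4.07-fold higher in neural explants, and a log2 ratio of 1.47 in mean TPM. Xelaev18002981m, chosen after its values were seen, had 1125, 273 and 889 counts in neural and 0, 0 and 0 in endoderm libraries, but 8.79, 7.28 and 4.59 TPM in neural and 5.02, 3.82 and 5.33 TPM in endoderm libraries. Counts came from STAR and TPM from RSEM, programs that treat reads with several matches differently, and the part of this in these rows was not tested. The last 2 rows, Xelaev18030343m and Xelaev18004210m, had under 60 counts in every library, and the call of Xelaev18004210m was lost without endoderm replicate 1 (adjusted p = 0.058), endoderm replicate 2 (adjusted p = 0.064) or neural replicate 3 (adjusted p = 0.058). Xelaev18010303m lost its call without endoderm replicate 1 (adjusted p = 0.064), endoderm replicate 2 (adjusted p = 0.07), endoderm replicate 3 (adjusted p = 0.061), neural replicate 1 (adjusted p = 0.085) or neural replicate 3 (adjusted p = 0.052). Of 1686 called rows with at least 10 TPM, 18 had mean TPM that differed in the other direction than the counts, and none of these is described below.

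**Figure D2:**
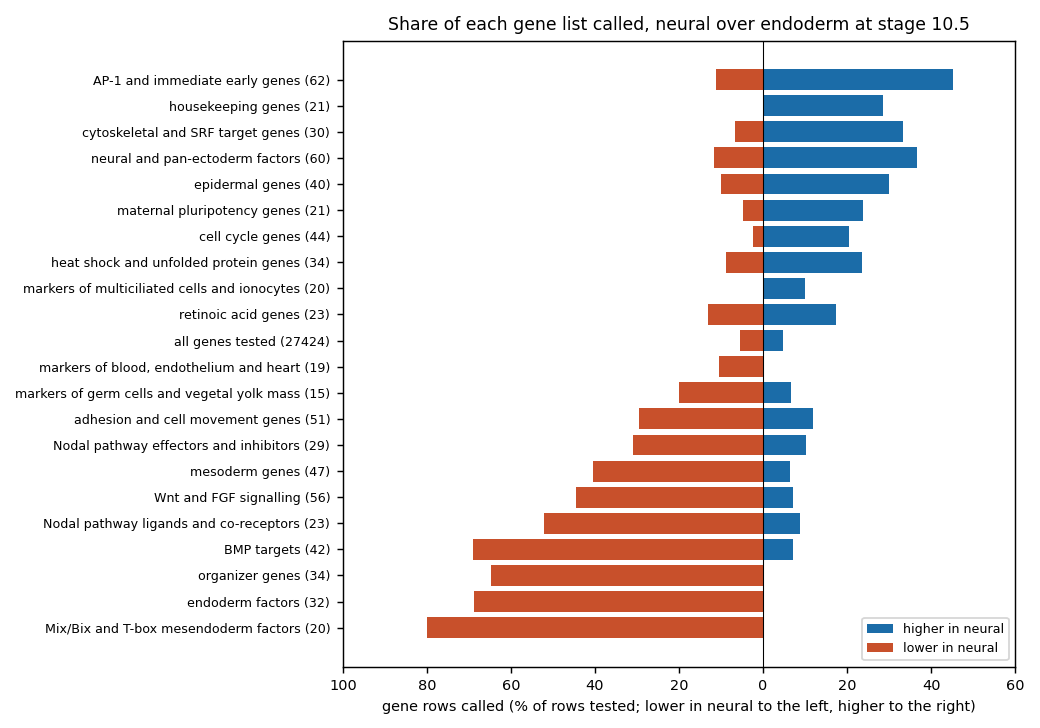
Share of the rows of each gene list that were called (x axis, percent of rows tested), with rows lower in neural explants drawn to the left and rows higher in neural explants to the right, and the number of rows tested in brackets. Mix/Bix and T-box factors, endoderm factors, BMP targets and organizer genes have 64.7% to 80.0% of their rows lower, and AP-1 and immediate early genes have 45.2% higher, against 5.41% and 4.65% of all genes tested. The lists were drawn up with earlier results of these data known, so the shares describe the lists and are no independent test.

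Endoderm factors were low in neural explants and abundant after Activin. Of 32 rows of this list, 22 were lower in neural explants and 0 higher, with a median log2 fold change of -5.54, or -5.33 with rows at 0 set to their bound, where the median of all rows was 0.01. sox17a.L, an HMG box factor that specifies endoderm, was at 3.2, 7.76 and 5.55 TPM in neural and 238, 276 and 276 TPM in endoderm explants (log2 fold change -5.44, standard error 0.28, adjusted p = 3.9e-06). Its S homeolog was at 0.9, 5.48 and 1.64 TPM in neural and 139, 125 and 126 TPM in endoderm explants. Every endoderm library stood above every neural library for both. sox17b.1.S was at 1.01, 1.98 and 0.86 TPM in neural and 261, 265 and 265 TPM in endoderm explants (log2 fold change -7.58, standard error 0.29, adjusted p = 5.3e-07). sox17b.2.L, the Sox17 row with the highest neural level, was at 19.7, 26.4 and 17.6 TPM in neural and 275, 288 and 319 TPM in endoderm explants (log2 fold change -3.65, standard error 0.17, adjusted p = 1.8e-06). Gata factors open the endoderm programme together with Sox17. gata6.S was at 0.13, 0.17 and 0.21 TPM in neural and 47.7, 60.8 and 55.5 TPM in endoderm explants (log2 fold change -9.29, standard error 0.24, adjusted p = 9.6e-08). gata4.S was at 2.18, 1.19 and 3.99 TPM in neural and 216, 189 and 210.0 TPM in endoderm explants, a smaller difference than its counts show. The homeobox gene hhex.L, of the anterior endoderm, was at 0.16, 0.37 and 0.24 TPM in neural and 79.1, 59 and 73.9 TPM in endoderm explants (log2 fold change -8.08, standard error 0.28, adjusted p = 3.5e-07). osr1.L and osr2.S, odd-skipped zinc finger factors, had log2 fold changes of -9.45 and -6.6.

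Not every endoderm gene had moved. a2m.S, which encodes the protease inhibitor alpha-2-macroglobulin, was at 15, 67.9 and 51.5 TPM in neural and 34.7, 44.5 and 63.9 TPM in endoderm explants (log2 fold change 0.05, standard error 0.50, adjusted p = 0.97), and the groups overlapped. foxa2.L was at 1.12, 0.68 and 11.4 TPM in neural and 5.51, 1.88 and 9.25 TPM in endoderm explants and was not called (adjusted p = 0.11). Genes that the study follows in endoderm were lower in neural explants. nptx2.S, a neuronal pentraxin, was at 0.41, 1.42 and 0.23 TPM in neural and 116, 160.0 and 137 TPM in endoderm explants (log2 fold change -7.39, standard error 0.54, adjusted p = 0.00014). tmcc1.S, a coiled-coil membrane protein, was at 10.9, 15.2 and 9.58 TPM in neural and 254, 215 and 227 TPM in endoderm explants (log2 fold change -4.09, standard error 0.19, adjusted p = 2.1e-06). The carbonic anhydrase gene ca14.S was at 0.75, 1.48 and 1.18 TPM in neural and 14.6, 15.9 and 8.37 TPM in endoderm explants. ca14.L lost its call with the replicate block (adjusted p = 0.098) and without endoderm replicate 1 (adjusted p = 0.081), endoderm replicate 2 (adjusted p = 0.092), endoderm replicate 3 (adjusted p = 0.055) or neural replicate 3 (adjusted p = 0.073).

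The Mix/Bix homeobox factors and the T-box factors, which Nodal signals switch on directly in mesendoderm, differed in nearly every row. Of 20 rows 16 were lower in neural explants and 0 higher, with a median log2 fold change of -7.76 (-7.05 with rows at 0 set to their bound). mixer.L was at 0.7, 0.32 and 0.69 TPM in neural and 1252, 1199 and 918 TPM in endoderm explants (log2 fold change -11.58, standard error 0.39, adjusted p = 7.9e-07). mix1.L was at 2.61, 4.73 and 2.13 TPM in neural and 897, 1055 and 932 TPM in endoderm explants (log2 fold change -8.28, standard error 0.25, adjusted p = 2.2e-07). bix1.3.L was at 0.36, 0.13 and 0.33 TPM in neural and 546, 599 and 573 TPM in endoderm explants (log2 fold change -10.88, standard error 0.27, adjusted p = 9.6e-08). All 10 Mix and Bix rows with TPM, mixer included, stayed below 5 TPM in every neural library and above 80 TPM in every endoderm library. vegt.S, a T-box factor whose mRNA is also stored in the egg, was at 81, 50.5 and 48.6 TPM in neural and 1033, 1246 and 1306 TPM in endoderm explants (log2 fold change -4.42, standard error 0.12, adjusted p = 9.6e-08). Its level in neural explants was thus well above 0, and whether these transcripts were maternal was not tested. eomes.S was at 1.53, 8.19 and 3.61 TPM in neural and 509, 487 and 525 TPM in endoderm explants (log2 fold change -6.73, standard error 0.59, adjusted p = 0.0012). Its homeolog eomes.L had 3.45, 16.5 and 3.05 TPM in neural explants, with replicate 2 above the others, and lost its call without endoderm replicate 1 (adjusted p = 0.052) or endoderm replicate 2 (adjusted p = 0.052). The mesodermal T-box gene t.S, also called brachyury, has no TPM and had 24, 19 and 40 counts in neural and 1327, 1482 and 858 counts in endoderm explants (log2 fold change -5.36, standard error 0.35, adjusted p = 1.7e-05).

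Genes of the Nodal pathway itself differed as well. Of the 23 rows of ligands and co-receptors 12 were lower in neural explants, 2 higher and 9 not called (median log2 fold change -1.36), and of the 29 rows of effectors and inhibitors 9 were lower, 3 higher and 17 not called (median -0.55). nodal1.L was at 0, 0.07 and 0 TPM in neural and 76.4, 104 and 106 TPM in endoderm explants (adjusted p = 5.4e-07), and with 1 count over the neural libraries the ratio of endoderm to neural counts was 3630 (counting interval 651 to 143000). The Vg1-related ligand gdf3.S was at 6.86, 2 and 7.16 TPM in neural and 334, 309 and 252 TPM in endoderm explants (log2 fold change -5.88, standard error 0.58, adjusted p = 0.0014). Among the lower rows were inhibitors of the pathway. lefty.L, which blocks Nodal at its co-receptor, was at 5.92, 6.44 and 5.74 TPM in neural and 382, 398 and 357 TPM in endoderm explants (log2 fold change -5.88, standard error 0.16, adjusted p = 1e-07), pmepa1.L at 1.12, 2.26 and 0.76 TPM in neural and 22.4, 23.8 and 23.5 TPM in endoderm explants. The inhibitory smad7.S was at 4.5, 4.66 and 3.39 TPM in neural and 18.8, 21.9 and 22.2 TPM in endoderm explants. The members higher in neural explants were a mixed group. tgif2.S, a homeodomain co-repressor of Smad2, was at 233, 305 and 225 TPM in neural and 28.7, 62.2 and 47.2 TPM in endoderm explants (log2 fold change 2.64, standard error 0.21, adjusted p = 7.2e-05), while its relative tgif1.L had a log2 fold change of -1.81. The Nodal co-receptor gene tdgf1.3.L was at 168, 156 and 193 TPM in neural and 70.6, 87.2 and 93.8 TPM in endoderm explants (log2 fold change 1.23, standard error 0.14, adjusted p = 0.00075). smad4.1.S, of the common partner of all receptor Smads, had 2356, 982 and 2890.0 TPM in neural and 306, 448 and 462 TPM in endoderm explants and was called (adjusted p = 0.016), but not with the replicate block (adjusted p = 0.077) and not without endoderm replicate 1 (adjusted p = 0.075), endoderm replicate 2 (adjusted p = 0.074), endoderm replicate 3 (adjusted p = 0.065) or neural replicate 1 (adjusted p = 0.066).

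Organizer genes were higher after Activin. The Spemann organizer is the dorsal mesendoderm that secretes BMP, Wnt and Nodal antagonists, and of 34 rows of its genes 22 were lower in neural explants and 0 higher, with a median log2 fold change of -4.88 (-4.35 with rows at 0 set to their bound). gsc.L, the homeobox factor goosecoid, was at 1.34, 1.04 and 4.49 TPM in neural and 589, 562 and 740.2 TPM in endoderm explants (log2 fold change -7.89, standard error 0.42, adjusted p = 1.8e-05). otx2.L, which later marks the anterior neural plate, was at 2.13, 3.2 and 1.99 TPM in neural and 518, 434 and 492 TPM in endoderm explants (log2 fold change -7.49, standard error 0.26, adjusted p = 3.4e-07). otx2.S was at 2.28, 7.84 and 4.34 TPM in neural and 168, 141 and 231 TPM in endoderm explants. At this stage, then, otx2 transcripts lay on the endoderm side of the comparison. lhx1.S, a LIM homeobox factor, was at 0.8, 0.63 and 1.32 TPM in neural and 227, 216 and 179 TPM in endoderm explants (log2 fold change -7.35, standard error 0.28, adjusted p = 5.4e-07). The secreted BMP antagonist chrd.L, chordin, was at 0.21, 1.44 and 0.88 TPM in neural and 213, 128 and 169 TPM in endoderm explants (log2 fold change -7.49, standard error 0.59, adjusted p = 0.00052), the Wnt antagonist frzb.S at 0.05, 0 and 0 TPM in neural and 15.8, 9.19 and 13.5 TPM in endoderm explants. The organizer ligand admp.S was at 3.99, 8.59 and 4.62 TPM in neural and 79, 27.7 and 70.3 TPM in endoderm explants. Endoderm replicate 2 was the lowest endoderm library for chrd.L, frzb.S, admp.S and also pnhd.L (40.4, 21.6 and 43.1 TPM), yet every endoderm library stood above every neural one.

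**Figure D3:**
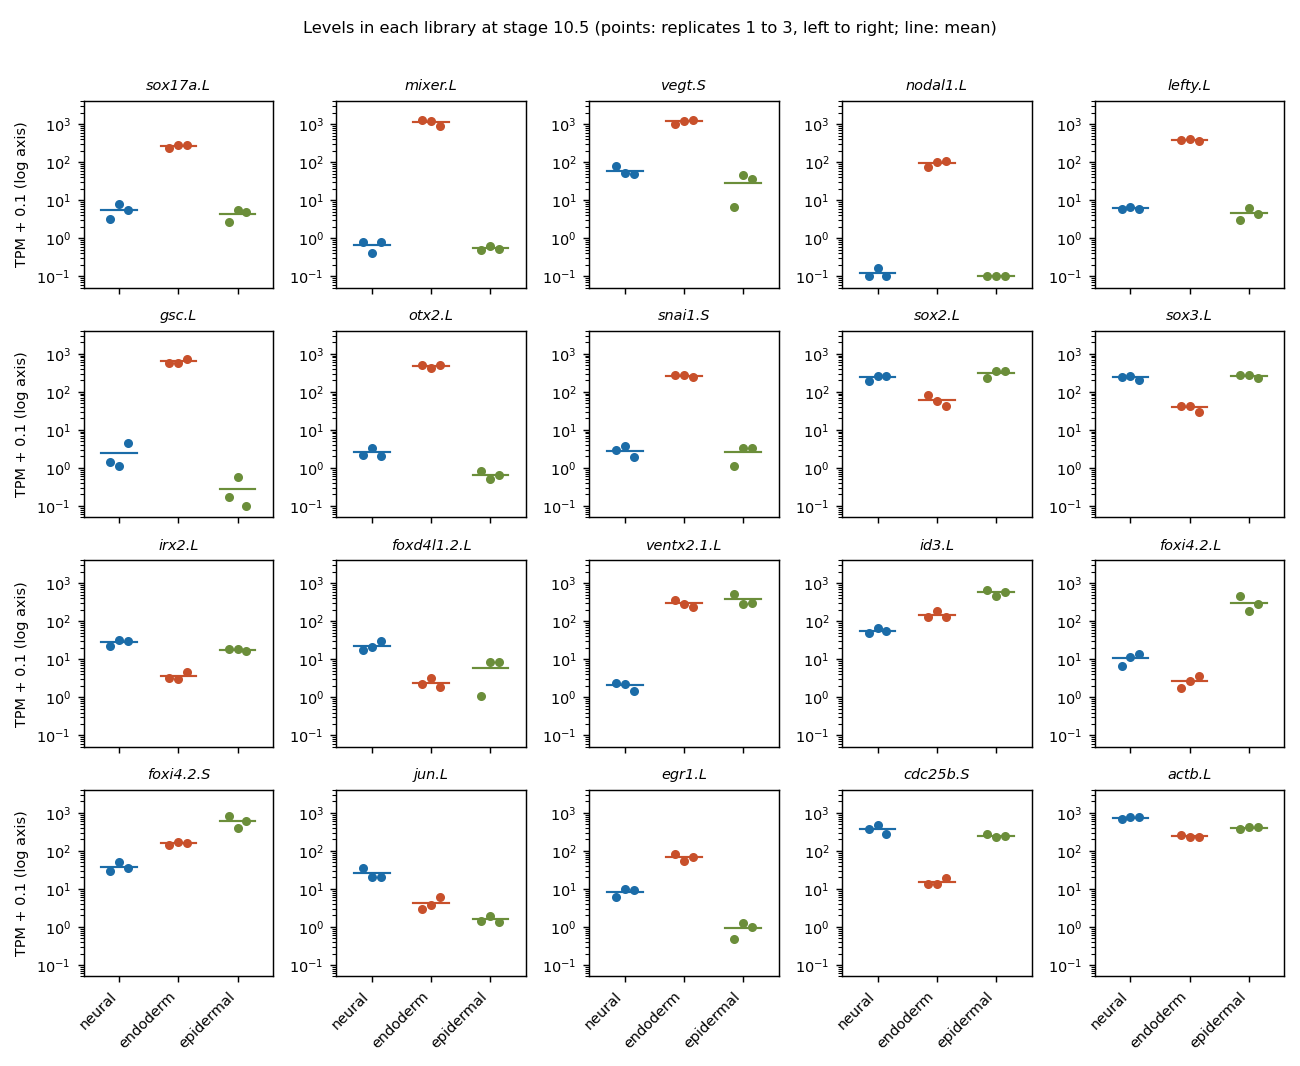
TPM + 0.1 on a log axis (y) of 20 gene rows in neural, endoderm and untreated epidermal libraries at stage 10.5 (x), with a point per library and a line at the mean. Endoderm, Nodal and organizer genes are high in the Activin explants alone, sox2.L and sox3.L are at like levels in neural and epidermal libraries, and ventx2.1.L is low in the neural libraries alone (2.35, 2.2 and 1.38 TPM).

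Among genes of mesoderm and of the Wnt and FGF pathways more rows were lower than higher in neural explants. Of 47 mesoderm rows 19 were lower, 3 higher and 25 not called (median log2 fold change -2.38), and of 56 rows of Wnt and FGF genes 25 were lower, 4 higher and 27 not called (median -1.15). Over all rows 5.41% were lower and 4.65% higher. The higher rows, 6.38% of the mesoderm and 7.14% of the Wnt and FGF rows, were near that share and do not set the lists apart. snai1.S, a zinc finger repressor that loosens epithelia, was at 2.76, 3.59 and 1.87 TPM in neural and 284, 277 and 238 TPM in endoderm explants (log2 fold change -6.49, standard error 0.24, adjusted p = 5.3e-07). The ligand fgf8.L was at 3.48, 6.25 and 2.49 TPM in neural and 71.7, 82.5 and 90.7 TPM in endoderm explants (log2 fold change -4.17, standard error 0.27, adjusted p = 1.6e-05). fgf3.S was at 0.19, 0.22 and 0.11 TPM in neural and 52.1, 52.9 and 44.1 TPM in endoderm explants (log2 fold change -7.84, standard error 0.26, adjusted p = 3e-07). FGF induces its own inhibitors of the Sprouty family, and spry2.L was at 17.7, 17.1 and 15.8 TPM in neural and 107, 105 and 109 TPM in endoderm explants (log2 fold change -2.64, standard error 0.19, adjusted p = 3.4e-05). wnt8a.L, a ventrolateral ligand, was at 0.08, 0.09 and 0 TPM in neural and 43.2, 28 and 17.8 TPM in endoderm explants. wnt11b.L, a ligand with a maternal supply, was at 18.8, 37.8 and 25.2 TPM in neural and 109, 192 and 181 TPM in endoderm explants. The 4 higher rows of the Wnt and FGF list were both copies of a receptor and of a secreted Wnt modulator. fgfr4.S was at 37, 38 and 34.9 TPM in neural and 7.73, 7.68 and 6.52 TPM in endoderm explants (log2 fold change 2.47, standard error 0.18, adjusted p = 3.2e-05). sfrp2.S was at 66.1, 59.5 and 55 TPM in neural and 6.86, 4.13 and 8.64 TPM in endoderm explants (log2 fold change 3.35, standard error 0.26, adjusted p = 4.9e-05). The muscle determination gene myod1.L was called higher in neural explants, at 11.9 ± 0.83 TPM, against 6.43 ± 2.17 TPM in endoderm explants (SD, n = 3 each), and lost that call whichever of the 6 libraries was omitted (adjusted p of 0.056 to 0.13).

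Factors of the early neural plate were called in both directions. Of 60 rows of neural and pan-ectodermal factors 22 were higher in neural explants, 7 lower and 31 not called, with a median log2 fold change of 1.05. The SoxB1 factors sox2 and sox3 keep ectoderm competent to become neural. sox2.L was at 191, 259.9 and 262 TPM in neural and 80, 58.6 and 41.5 TPM in endoderm explants (log2 fold change 2.14, standard error 0.27, adjusted p = 0.0011), sox3.L at 249, 263 and 207 TPM in neural and 43.4, 43 and 29.9 TPM in endoderm explants (log2 fold change 2.75, standard error 0.21, adjusted p = 4.7e-05) and sox3.S at 490.2, 574 and 471 TPM in neural and 187, 175 and 134 TPM in endoderm explants. Endoderm explants thus still held these transcripts. sox11.S, a SoxC factor, was at 24.3, 41.1 and 29 TPM in neural and 12.6, 9.71 and 9.38 TPM in endoderm explants (log2 fold change 1.71, standard error 0.25, adjusted p = 0.0025). The Iroquois factor irx1.S was at 53.6, 57.2 and 57.5 TPM in neural and 15.3, 11.4 and 17.5 TPM in endoderm explants (log2 fold change 2.05, standard error 0.19, adjusted p = 0.00018). irx2.L was at 22.9, 31.3 and 30.7 TPM in neural and 3.09, 3.01 and 4.59 TPM in endoderm explants, with a log2 fold change of 5.25 in counts and 2.99 in mean TPM. foxd4l1.2.L, a forkhead factor that holds neural cells immature, was at 17.8, 20.9 and 29.8 TPM in neural and 2.1, 3.09 and 1.82 TPM in endoderm explants (log2 fold change 3.43, standard error 0.35, adjusted p = 0.0003). hes5.2.L, a Notch target chosen after its values were seen, was at 6.7, 5.88 and 4.03 TPM in neural and 0.14, 0 and 0 TPM in endoderm explants.

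Other neural plate genes lay on the endoderm side. zic2.L was at 13, 14.1 and 16 TPM in neural and 90.6, 84.8 and 70.5 TPM in endoderm explants (log2 fold change -2.35, standard error 0.18, adjusted p = 5.2e-05). The forkhead row foxd4l1.1.S had a log2 fold change of -2.17, opposite to foxd4l1.2.L. zic1.L, a zinc finger relative of zic2.L, differed the other way, at 104, 109.6 and 73.4 TPM in neural and 42.3, 16.1 and 29.6 TPM in endoderm explants (adjusted p = 0.046), a call that was lost without endoderm replicate 2 (adjusted p = 0.071), endoderm replicate 3 (adjusted p = 0.14), neural replicate 1 (adjusted p = 0.14), neural replicate 2 (adjusted p = 0.12) or neural replicate 3 (adjusted p = 0.06). otx1.L had 10.1, 4.2 and 7.77 TPM in neural and 2.47, 3.59 and 3.14 TPM in endoderm explants and was not called (log2 fold change 1.11, standard error 0.35, adjusted p = 0.082).

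Transcripts of BMP target genes were lower in Noggin explants than in Activin explants. Of 42 rows 29 were lower and 3 higher, with a median log2 fold change of -1.87. ventx2.1.L, a homeobox repressor of dorsal fates, was at 2.35, 2.2 and 1.38 TPM in neural and 372, 282 and 241 TPM in endoderm explants (log2 fold change -7.25, standard error 0.31, adjusted p = 1.1e-06). ventx2.1.S was at 16.8, 21.4 and 24.4 TPM in neural and 338, 376 and 338 TPM in endoderm explants (log2 fold change -4.16, standard error 0.16, adjusted p = 5.4e-07). ventx1.2.L was at 2.64, 0.69 and 2.59 TPM in neural and 27.3, 34.1 and 20.7 TPM in endoderm explants. All 7 ventx1 and ventx2 rows were called lower, where 5.41% of all rows were, whereas ventx3.2.L and ventx3.2.S were not called. gata2.L, a zinc finger factor of ventral ectoderm and mesoderm, was at 1.32, 0.89 and 1.64 TPM in neural and 106, 105 and 80.2 TPM in endoderm explants (log2 fold change -6.48, standard error 0.27, adjusted p = 8.5e-07). Other rows of the list differed by less. id3.L, an inhibitor of basic helix-loop-helix factors, was at 49, 64.9 and 55.1 TPM in neural and 129, 191 and 132 TPM in endoderm explants (log2 fold change -1.62, standard error 0.18, adjusted p = 0.00055), bambi.S, a decoy receptor, at 7.41, 6.87 and 8.37 TPM in neural and 18.4, 36.8 and 28.4 TPM in endoderm explants, and szl, sizzled, at 3.74, 2.33 and 2.37 TPM in neural and 9.04, 28.3 and 25.7 TPM in endoderm explants. szl was not called with all 12 stage 10.5 libraries in the fit (adjusted p = 0.059), and id3.S lost its call without endoderm replicate 2 (adjusted p = 0.066), neural replicate 1 (adjusted p = 0.058), neural replicate 2 (adjusted p = 0.061) or neural replicate 3 (adjusted p = 0.062). The 3 rows higher in neural explants were ligands, bmp4.L, bmp4.S and bmp7.2.L, and the call of bmp4.L was lost without endoderm replicate 2 (adjusted p = 0.056). bmp4.S was at 43.2, 57.4 and 44.5 TPM in neural and 14.8, 24.2 and 21.6 TPM in endoderm explants (log2 fold change 1.63, standard error 0.22, adjusted p = 0.0016). bmp7.2.L was at 590.0, 505 and 438 TPM in neural and 229.8, 277 and 292 TPM in endoderm explants (log2 fold change 0.99, standard error 0.15, adjusted p = 0.0034). bmp7.1.L, in contrast, was at 0.35, 0.33 and 0.38 TPM in neural and 15.1, 17.2 and 19.9 TPM in endoderm explants.

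Epidermal and general ectodermal genes leaned to the neural side. Of 40 rows 12 were higher and 4 lower in neural explants, beside 4.65% and 5.41% of all rows, with a median log2 fold change of 0.33. In the stage 9 baseline given below, 7 of these rows were called higher and 2 lower, beside 0.901% and 0.726% of all rows. The change to stage 10.5 was called toward neural for 1 row and toward endoderm for 4, beside 1.13% and 1.97% of all rows. tfap2a.S, a factor of epidermis and neural crest, was at 197, 161 and 98.3 TPM in neural and 45.6, 70.9 and 67.5 TPM in endoderm explants (log2 fold change 1.72, standard error 0.22, adjusted p = 0.0012). grhl3.L, a grainyhead factor of the epidermal barrier, was at 28.9, 58.2 and 54.5 TPM in neural and 4.61, 13.2 and 12.3 TPM in endoderm explants (log2 fold change 2.38, standard error 0.39, adjusted p = 0.0079). The Krüppel-like factor klf17.L was at 30.2, 45.8 and 22.4 TPM in neural and 7.04, 4.32 and 4.4 TPM in endoderm explants (log2 fold change 2.79, standard error 0.34, adjusted p = 0.00092). Untreated explants had more of all 3, with 822, 288 and 368 TPM of tfap2a.S, 202, 79 and 113 TPM of grhl3.L and 253, 104 and 170.5 TPM of klf17.L. grhl1.S was lower in neural explants, at 14.6, 8.77 and 9.24 TPM against 23.5, 26.6 and 20.3 TPM in endoderm explants. With all 12 stage 10.5 libraries in the fit neither tfap2a.S (adjusted p = 0.059) nor grhl1.S (adjusted p = 0.21) was called. The homeologs of the early ectodermal forkhead factor foxi4.2 differed in opposite directions. foxi4.2.L was at 6.58, 11.2 and 14 TPM in neural and 1.65, 2.52 and 3.64 TPM in endoderm explants (log2 fold change 2.16, standard error 0.38, adjusted p = 0.0078), whereas foxi4.2.S was at 30.4, 49.9 and 35.9 TPM in neural and 142, 170.5 and 163 TPM in endoderm explants (log2 fold change -1.89, standard error 0.18, adjusted p = 0.00024).

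AP-1 and immediate early genes, which cells switch on within minutes of growth factors, wounding or stress, were often higher in neural explants. Of 62 rows 28 were higher and 7 lower, with a median log2 fold change of 1.12. In the stage 9 baseline given below, 10 of these rows were called higher and 2 lower, beside 0.901% and 0.726% of all rows. The change from stage 9 to stage 10.5 was called toward neural for 10 rows and toward endoderm for 10, beside 1.13% and 1.97% of all rows. jun.L was at 34.8, 20.6 and 20.6 TPM in neural and 2.81, 3.73 and 6.2 TPM in endoderm explants (log2 fold change 2.81, standard error 0.35, adjusted p = 0.0011), and at 1.34, 1.87 and 1.25 TPM in untreated explants. jund.S was at 17.8, 19.4 and 19.3 TPM in neural and 2.57, 1.33 and 4.29 TPM in endoderm explants (log2 fold change 2.98, standard error 0.36, adjusted p = 0.00093). atf3.L, a stress-induced partner of Jun, was at 10.4, 11.3 and 10.4 TPM in neural and 2.12, 2.22 and 1.89 TPM in endoderm explants (log2 fold change 2.66, standard error 0.22, adjusted p = 9e-05). fos.S was at 90.7, 78.8 and 92.7 TPM in neural and 28.3, 56.8 and 39.8 TPM in endoderm explants (log2 fold change 1.27, standard error 0.22, adjusted p = 0.0077), with 5.71, 14.3 and 12.1 TPM in untreated explants. For jun.L and fos.S every neural library was above every endoderm library, and every endoderm library above every untreated one. Over the list 8 of 62 rows were higher and 2 lower in neural than in untreated explants, where 0.102% of all rows were higher and 0.12% lower. In endoderm explants 12 were higher and 14 lower than in untreated ones, where 4.33% of all rows were higher and 3.68% lower. jun.S lost its call without endoderm replicate 1 (adjusted p = 0.067) or endoderm replicate 3 (adjusted p = 0.064), and junb.L with the replicate block (adjusted p = 0.062). The rows lower in neural explants were both copies each of egr1, klf6 and dusp5, and dusp6.S. egr1.L, a zinc finger gene downstream of FGF and MAP kinase, was at 6.03, 9.96 and 9.09 TPM in neural and 84.1, 54 and 70.4 TPM in endoderm explants (log2 fold change -2.94, standard error 0.25, adjusted p = 8.9e-05). klf6.S was at 3.5, 5.63 and 5.63 TPM in neural and 25.3, 20.4 and 25.6 TPM in endoderm explants. dusp6.S, a phosphatase that FGF induces, was at 18.4, 24.6 and 16.7 TPM in neural and 38.6, 46 and 47.2 TPM in endoderm explants. With all 12 stage 10.5 libraries in the fit fos.S (adjusted p = 0.14), egr1.L (0.066), dusp5.L (0.17) and dusp6.S (0.094) were not called.

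Actin and some heat shock genes were on the same side as the AP-1 genes. Of 30 rows of cytoskeletal genes and targets of serum response factor 10 were higher and 2 lower in neural explants (median log2 fold change 0.82). actb.L was at 682, 798 and 787 TPM in neural and 259, 235 and 238 TPM in endoderm explants (log2 fold change 1.82, standard error 0.13, adjusted p = 2.7e-05). actg1.S was at 1640.0, 1827 and 1644 TPM in neural and 928, 1041 and 1132 TPM in endoderm explants (log2 fold change 0.88, standard error 0.10, adjusted p = 0.00063). actc1.S, an actin of striated muscle, was low but at 6.08, 12 and 3.1 TPM in neural and 0.32, 0.7 and 0.1 TPM in endoderm explants (log2 fold change 5.32, standard error 0.90, adjusted p = 0.0066). Of 34 rows of heat shock and unfolded protein genes 8 were higher and 3 lower (median 0.15). The inducible chaperone hsp90aa1.1.L was at 137, 55.5 and 87.2 TPM in neural and 12.6, 4.13 and 8.77 TPM in endoderm explants (log2 fold change 3.60, standard error 0.57, adjusted p = 0.012), and lost its call without endoderm replicate 3 (adjusted p = 0.063). atf4.S, the factor of the integrated stress response, was at 61.3, 56.2 and 62.5 TPM in neural and 19.3, 16.9 and 34.6 TPM in endoderm explants, while the mTOR inhibitor ddit4.L lay on the endoderm side, at 101, 184 and 152 TPM in neural and 438, 391 and 362 TPM in endoderm explants (adjusted p = 0.051 with all 12 stage 10.5 libraries in the fit). The part of the 2 media in these values was not tested.

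Genes of adhesion and cell movement were divided between the groups. Of 51 rows 15 were lower and 6 higher in neural explants (median log2 fold change -0.26). pcdh8.2.S, a protocadherin, was at 0.1, 0.03 and 0.1 TPM in neural and 491, 351 and 355 TPM in endoderm explants (log2 fold change -12.12, standard error 0.37, adjusted p = 2.4e-07). cxcr4.L, the receptor for the chemokine Cxcl12 that guides mesendoderm, was at 39.5, 54.9 and 46.6 TPM in neural and 288, 274 and 293 TPM in endoderm explants (log2 fold change -2.45, standard error 0.14, adjusted p = 6.5e-06). efnb2.S, an ephrin that keeps tissues apart, was at 8.06, 7.17 and 6.91 TPM in neural and 141, 139 and 148 TPM in endoderm explants (log2 fold change -4.10, standard error 0.15, adjusted p = 5.3e-07). epha4.L, a receptor for ephrins, was at 126, 134 and 146 TPM in neural and 565, 498 and 534 TPM in endoderm explants. Among the 6 higher rows were cdh1.S and cldn4.L. cdh1.S, E-cadherin, was at 107, 116 and 58.7 TPM in neural and 29.6, 36.6 and 30.8 TPM in endoderm explants (log2 fold change 1.77, standard error 0.25, adjusted p = 0.0024). The tight junction gene cldn4.L was at 244, 331 and 246 TPM in neural and 140.2, 145 and 168 TPM in endoderm explants (log2 fold change 1.01, standard error 0.14, adjusted p = 0.002).

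Of 23 rows of retinoic acid genes 4 were higher in neural explants, 3 lower and 16 not called, with a median log2 fold change of 0.27. aldh1a2.L, the enzyme that makes retinoic acid, was at 7.06, 8.08 and 10.8 TPM in neural and 81.5, 66.4 and 74.4 TPM in endoderm explants (log2 fold change -2.96, standard error 0.20, adjusted p = 2.3e-05). dhrs3.S, which turns its precursor back to retinol, was at 37.5, 55.3 and 25.3 TPM in neural and 15.9, 18.2 and 12.3 TPM in endoderm explants (log2 fold change 1.47, standard error 0.27, adjusted p = 0.0098).

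Among cell cycle genes the mitotic phosphatase cdc25b stood out. cdc25b.S was at 374, 467 and 282 TPM in neural and 13.4, 13.2 and 19 TPM in endoderm explants (log2 fold change 4.78, standard error 0.25, adjusted p = 4.5e-06). cdc25b.L was at 76.7, 227 and 107 TPM in neural and 12.1, 13.5 and 13.8 TPM in endoderm explants. The cyclin gene ccne2.S was at 99.4, 92.8 and 88.2 TPM in neural and 17.4, 25.6 and 28.2 TPM in endoderm explants (log2 fold change 2.18, standard error 0.17, adjusted p = 6.1e-05). wee1.S, a kinase that opposes Cdc25, was at 67.4, 76.8 and 70.5 TPM in neural and 132, 154 and 149 TPM in endoderm explants, the 1 of 44 rows of this list called lower, beside 9 called higher. Of 21 rows of maternal pluripotency genes 5 were higher and 1 lower, and pou5f3.2.L, an Oct4 relative, was at 1157, 1244 and 812 TPM in neural and 651, 672 and 691 TPM in endoderm explants (log2 fold change 0.87, standard error 0.16, adjusted p = 0.0093). Housekeeping genes were not neutral, with 6 of 21 rows higher in neural explants, 0 lower and a median log2 fold change of 0.41. Of these 6 rows 3 were beta-actin, and eef1a1.L was at 1648, 1335 and 1219 TPM in neural and 903, 878 and 935 TPM in endoderm explants.

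Markers of other cell types were counted as well, beside 4.65% of all rows called higher and 5.41% called lower in neural explants. In lists this short a few called rows do not set a cell type apart. Of 20 rows for multiciliated cells and ionocytes 2 were higher and 0 lower, with summed levels of 113 to 167 TPM in neural and 123 to 213 TPM in endoderm libraries. One of these was gmnc.L, a regulator of multiciliated cells, which had 42, 49 and 44 counts in neural and 0, 0 and 0 in endoderm explants, at least 16.4-fold higher in neural explants. Blood, endothelium and heart markers summed to 10.1 to 14.5 TPM in neural and 21.9 to 27.4 TPM in endoderm libraries, with 0 of 19 rows higher and 2 lower. Germ cell and vegetal markers summed to 347 to 435 TPM in neural and 2350 to 2800 TPM in endoderm libraries, and the vegt rows described above belong to this list. Of its 15 rows 1 was higher and 3 lower, of which 2 are the vegt rows and the third is plin2.S, a lipid droplet protein whose call was lost without endoderm replicate 1 (adjusted p = 0.062) or neural replicate 1 (adjusted p = 0.055). Of the blood, endothelium and heart rows 14 of 19 were below 1 TPM on average in neural and 13 of 19 in endoderm explants. The part of these cell types in the differences was not tested.

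Homeologs mostly did not contradict each other. Of 6326 pairs with both copies tested, 127 had both copies higher in neural explants, 150 had both lower, 20 had copies called in opposite directions, and in 990 only 1 copy was called. Besides foxi4.2, the pairs in opposite directions included irx3, slc2a1 and prdm1, of which the last 2 were chosen after their values were seen. slc2a1.L, a glucose transporter, was at 3.48, 3.37 and 1.74 TPM in neural and 141, 99.8 and 145 TPM in endoderm explants (log2 fold change -5.25, standard error 0.30, adjusted p = 1.1e-05). slc2a1.S was at 39.4, 15.9 and 25.9 TPM in neural and 9.11, 10.1 and 12.3 TPM in endoderm explants (log2 fold change 1.60, standard error 0.27, adjusted p = 0.0058). prdm1.L, a zinc finger repressor, was at 5.67, 9.09 and 5.37 TPM in neural and 45.3, 37.4 and 35.3 TPM in endoderm explants. prdm1.S was at 25.3, 28.6 and 21.7 TPM in neural and 13.5, 7.9 and 12 TPM in endoderm explants. The call of prdm1.S was lost without endoderm replicate 2 (adjusted p = 0.078), endoderm replicate 3 (adjusted p = 0.087), neural replicate 1 (adjusted p = 0.095) or neural replicate 2 (adjusted p = 0.09). irx3.L, at 0.54, 2.06 and 5.16 TPM in neural and 40.1, 21.9 and 30.1 TPM in endoderm explants, was not called with the replicate block (adjusted p = 0.088) nor without endoderm replicate 1 (adjusted p = 0.076), endoderm replicate 2 (adjusted p = 0.069), endoderm replicate 3 (adjusted p = 0.073) or neural replicate 2 (adjusted p = 0.1). Where 2 copies are nearly identical, the authors' counting could assign reads of one to the other.

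Stage 9 was the earliest stage collected, when treatment had only begun, and the same comparison was made there as a baseline. At stage 9, 446 rows (1.63%) were called, 247 higher (0.901%) and 199 lower (0.726%) in neural explants. This count rested on single libraries, since edgeR called 267 rows without endoderm replicate 1 of stage 9, 0 without endoderm replicate 2, 4 without endoderm replicate 3, 3 without neural replicate 1, 52 without neural replicate 2 and 1 without neural replicate 3. Where it called 0 rows, 3462 had an unadjusted p of at most 0.05, and DESeq2 called 2665 rows on all 6 libraries. Every call at stage 9 given above or below was therefore lost without endoderm replicate 2 of that stage. Of the 446 rows 185 were called in the same direction at stage 10.5, 39 in the opposite direction and 222 at stage 9 only. The change of the difference between the stages, tested as an interaction, was called for 850 rows (3.1%), 311 toward neural (1.13%) and 539 toward endoderm (1.97%), and for 2400 rows with a block for the replicate within each lineage. Of the 2760 rows called at stage 10.5, 668 had a called change.

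Many endoderm and organizer rows had a called change from stage 9 to stage 10.5. sox17a.L was at 7.75, 13.2 and 7.98 TPM in neural and 6.16, 5.4 and 4.24 TPM in endoderm explants at stage 9 (adjusted p = 0.17), and the change to stage 10.5 was -6.50 on the log2 scale (adjusted p = 2.4e-06). sox17b.2.L was at 36.5, 63.1 and 43.9 TPM in neural and 25.8, 12.6 and 15.7 TPM in endoderm explants at stage 9, with the groups apart in the order opposite to stage 10.5, and was not called (log2 fold change 1.56, adjusted p = 0.067). mixer.L was below 1 TPM in all 6 libraries at stage 9 and its change was -12.13 on the log2 scale (adjusted p = 1.9e-05). Of the endoderm factors 0 of 32 rows were called at stage 9 and 17 had a called change toward endoderm. Of the Mix/Bix and T-box factors these numbers were 0 and 16 of 20 rows, and of the organizer genes 0 and 21 of 34. Over all rows the shares were 1.63% called at stage 9 and 1.97% with a called change toward endoderm. With so few calls at stage 9, the absence of calls does not set these lists apart.

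Some BMP targets began on the other side. At stage 9, 8 of the 42 rows of that list were called higher in neural explants and 0 lower, and 21 had a called change toward endoderm. Over all rows these shares were 0.901%, 0.726% and 1.97%. BMP targets were not alone in their calls at stage 9. Epidermal genes had 7 of 40 rows called higher in neural explants there and 2 lower. AP-1 and immediate early genes had 10 of 62 rows higher and 2 lower. ventx2.1.L was at 232, 149 and 131 TPM in neural and 39.2, 23 and 52.2 TPM in endoderm explants at stage 9 (log2 fold change 2.19, standard error 0.32, adjusted p = 0.029), the opposite order to stage 10.5. id3.L was at 192, 139 and 178 TPM in neural and 43.5, 38.9 and 54.4 TPM in endoderm explants (log2 fold change 1.62, standard error 0.16, adjusted p = 0.018). egr1.L went the same way, at 14.3, 31.5 and 28.6 TPM in neural and 5.77, 4.09 and 5.67 TPM in endoderm explants (log2 fold change 2.45, standard error 0.34, adjusted p = 0.027). All 3 were higher in every neural library than in any endoderm library at stage 9 and lower in every one at stage 10.5. The 16 rows of the lists that reversed in this way also held ventx1.2, ventx2.2.L, gdf3.S, spry2, sp5l, cxcr4.L and dusp5.L. Most of all 39 reversing rows, those outside the lists included, also went from higher to lower in neural explants, so this direction does not set the lists apart. The study counts the replicates of every lineage as independent experiments, and on that account lineage and experiment cannot be told apart. Same-numbered neural and endoderm libraries of stage 10.5 nonetheless deviated together, and whether they shared a day or a frog is not stated. The part of this in the stage 9 differences was not tested.

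**Figure D4:**
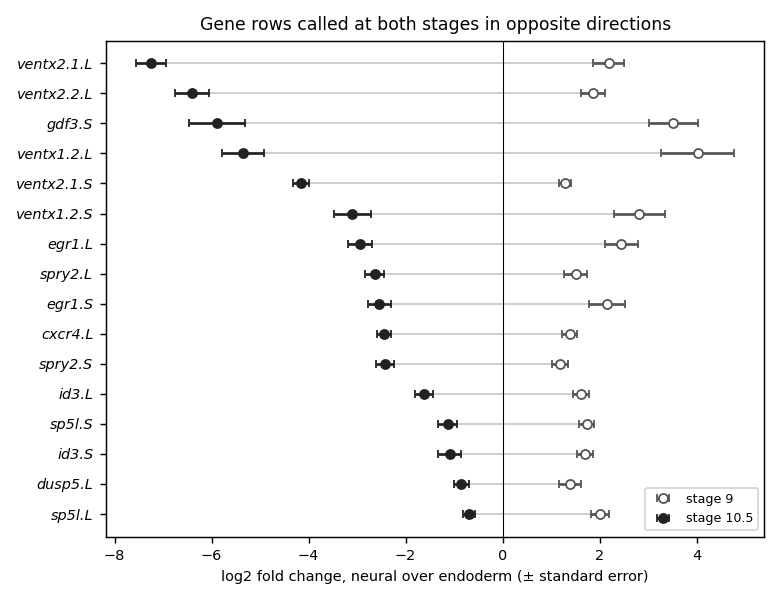
Log2 fold change of neural over endoderm explants with its standard error (x axis) at stage 9 (open points) and stage 10.5 (filled points) for the 16 rows of the gene lists (y axis) called at both stages in opposite directions. All 16 are above 0 at stage 9 and below 0 at stage 10.5, with ventx2.1.L at 2.19 and -7.25.

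Over the later stages the number of called rows was 1034 (3.77%) at stage 10, 2760 at stage 10.5, 2804 (10.2%) at stage 11, 5403 (19.7%) at stage 12 and 2438 (8.89%) at stage 13. Such counts depend on the spread between libraries as well as on the differences. No alternative fit was run at stages 10, 11, 12 or 13. Some genes that were high in endoderm explants at stage 10.5 had low levels there by stage 13. nodal1.L was at 117 ± 9.13 TPM in endoderm explants at stage 10, 95.4 ± 16.6 at stage 10.5 and 2.18 ± 1.35 at stage 13 (SD, n = 3 each), and gsc.L at 80.8 ± 16.2, 630.4 ± 96 and 16.5 ± 19.6 TPM (SD, n = 3 each). sox17a.L, in contrast, went on to 456 ± 67.6 TPM in endoderm explants at stage 13 (SD, n = 3), and a2m.S, not called at stage 10.5, was at 293 ± 167 TPM in neural and 2209 ± 289 TPM in endoderm explants by then (log2 fold change -2.94, standard error 0.44, adjusted p = 0.0054). In neural explants ventx2.1.L was at 15.4 ± 7.9 TPM at stage 10, 1.98 ± 0.52 at stage 10.5, 2.67 ± 1.48 at stage 11 and 102 ± 76.5 at stage 13 (SD, n = 3 each). sox3.L stayed at 239.7 ± 29.3 and 191 ± 65.4 TPM in neural explants at stages 10.5 and 13, against 38.8 ± 7.65 and 3.9 ± 4.13 TPM in endoderm explants (SD, n = 3 each). otx2.L was at 175 ± 202 TPM in neural explants at stage 13, against 55.9 ± 28.9 TPM in endoderm explants (SD, n = 3 each, adjusted p = 0.27), and was no longer called, with 1 of the neural libraries far above the others.

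**Figure D5:**
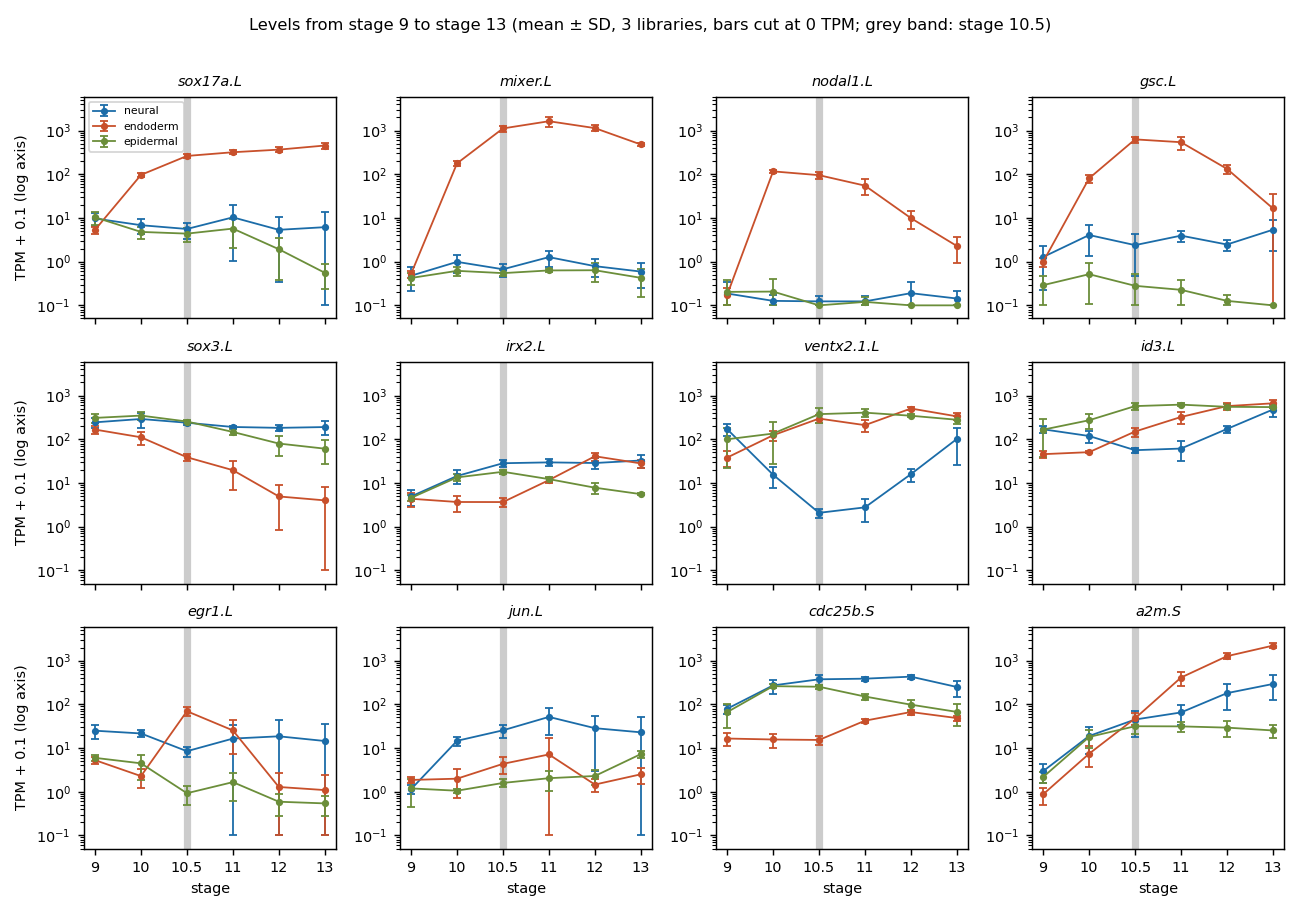
Mean TPM + 0.1 on a log axis (y) with SD over 3 libraries, by stage (x), in neural, endoderm and epidermal explants for 12 gene rows, with stage 10.5 shaded. sox17a.L, nodal1.L and gsc.L in endoderm explants are above the neural mean from stage 10, and the mean of ventx2.1.L in neural explants is lowest at stage 10.5, at 1.98 ± 0.52 TPM.

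Untreated explants give the level on either side of each difference. These comparisons share the neural or the endoderm libraries with the one above and are given only side by side with it. Untreated replicate 1, which stood apart from the others, was left out in turn. Neural against untreated explants had 61 called rows (0.222%), 28 higher (0.102%) and 33 lower (0.12%) in neural explants, with 3414 rows at an unadjusted p of at most 0.05, 838 called by DESeq2 and 102 without untreated replicate 1. Leaving out untreated replicate 3 or neural replicate 1, 2 or 3 gave 21 to 26. Endoderm against untreated explants had 2198 called rows (8.01%), 1188 higher (4.33%) and 1010 lower (3.68%) in endoderm explants. That count was 2282 without untreated replicate 1, 1352 with the replicate block and 1029 to 1410 without any 1 of the other 5 libraries.

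Endoderm genes were high in Activin explants, with 25 of 32 endoderm factor rows higher in endoderm than in untreated explants, against 4.33% of all rows. Between neural and untreated explants 0 of 32 were called in either direction. As only 0.222% of all rows were called there, this 0 does not set the list apart. sox17a.L was at 2.6, 5.51 and 4.75 TPM in untreated explants, with log2 fold changes of 0.34 for neural over untreated (adjusted p = 0.77) and 5.77 for endoderm over untreated (adjusted p = 6.7e-06). The SoxB1 row sox3.L was lower in Activin explants than in untreated ones. sox3.L was at 268, 268 and 230.4 TPM in untreated explants, with log2 fold changes of -0.09 for neural over untreated (adjusted p = 0.86) and -2.84 for endoderm over untreated (adjusted p = 0.00013). cdc25b.S was at 280.0, 235 and 244 TPM in untreated explants, again far above the endoderm libraries. Of the 42 BMP target rows 10 were lower and 0 higher in neural than in untreated explants, and 9 were lower and 5 higher in endoderm than in untreated explants. Over all rows 0.12% were lower in neural and 3.68% lower in endoderm than in untreated explants. ventx2.1.L was at 538, 285 and 309 TPM in untreated explants, with log2 fold changes of -7.69 for neural over untreated (adjusted p = 0.00015) and -0.44 for endoderm over untreated (adjusted p = 0.43). id3.L was below its untreated level of 675, 472 and 582 TPM in both groups, with log2 fold changes of -3.35 for neural over untreated (adjusted p = 0.0004) and -1.73 for endoderm over untreated (adjusted p = 0.0043). jun.L had log2 fold changes of 4.2 for neural over untreated (adjusted p = 0.0016) and 1.39 for endoderm over untreated (adjusted p = 0.066), of which the second was not called. egr1.L was above its untreated level in both, with log2 fold changes of 3.46 for neural over untreated (adjusted p = 0.017) and 6.39 for endoderm over untreated (adjusted p = 6.4e-05).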

How the data were processed

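Messenger RNA of pooled explants was sequenced after a TruSeq preparation. The deposited counts are whole reads per gene from STAR on the X. laevis genome, and the deposited TPM were made by the authors with RSEM and are scaled to gene length. Each library is a labelled replicate of its lineage and stage. Embryos came from a single frog per day, and p-values measure the spread between these libraries. Of 45656 rows of the count table, the 27424 with at least 15 counts in at least 1 of 74 libraries were kept, and TPM were matched to 26237 of them by symbol and to 469 by a RefSeq synonym, with 718 left without.

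Counts were tested with edgeR 4.0.16 (R 4.3.3), with TMM factors and a robust quasi-likelihood F test, on the libraries compared only. The p-values were adjusted by Benjamini-Hochberg over all 27424 rows, and the standard error is the log2 fold change divided by the root of F. The fit was tested on simulated data. A fold against a group at 0 used 3 counts per library as a floor, and counting intervals are exact at 95%.

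Same-numbered neural and endoderm libraries deviated together (r = 0.197, 0.104 and 0.221 over 12623 genes), so replicate numbers were taken to pair them in an alternative fit. The study counts them as independent experiments, so this pairing is an assumption. Other alternatives were DESeq2 1.42.0, limma 3.58.1 on log2(TPM + 1), other size factors, filters and thresholds, thinned libraries, summed homeologs and each library left out. Rows named were the 10 with the largest fold in each direction among called rows with at least 10 TPM, list members with at least 10 TPM in either group or a call, and genes the study follows. The members and lists were chosen with earlier results of these data known. Promoter motifs were not searched. Python 3.11.15 with pandas 2.3.3 and matplotlib 3.10.9 was used for summaries and plots.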

Additional observations from a re-analysis of the deposited data

Results flagged for a closer look

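The difference between neural and endoderm explants changed from stage 9 to stage 10.5 for 850 rows by the test of the change itself, and 39 of them were called at both stages in opposite directions. Among the genes described above, the change in log2 fold was -9.47 for ventx2.1.L, -5.48 for ventx2.1.S, -8.28 for ventx2.2.L and -9.39 for ventx1.2.L, which encode homeobox repressors downstream of BMP. It was -3.26 for id3.L, -2.82 for id3.S and -9.42 for the ligand gene gdf3.S. Genes that respond to FGF or MAP kinase changed by -5.41 (egr1.L), -4.18 (spry2.L) and -2.27 (dusp5.L), and the chemokine receptor gene cxcr4.L by -3.85. The calls at stage 9 on which the opposite direction rests were lost without endoderm replicate 2 of that stage.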

How the results depend on the processing

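The 2760 calls between neural and endoderm explants stayed within 1.5 times under RLE factors (2763), no filter (3145), a filter on the 6 libraries (2798), all 12 stage 10.5 libraries in the fit (2328), thinning (2776), a minimum log2 fold change of 1 (2102), limma on TPM (2337), the replicate block (2998) and summed homeologs (2157 of 19684 genes). DESeq2 gave 4279 and an adjusted p of at most 0.01 gave 1138, and leaving out 1 library gave 1478 to 2223. At stage 9 the 446 calls became 2665 with DESeq2, 618 with the replicate block and 0 to 267 without 1 library, and the 850 calls for the change between stages became 1480, 2400 with the replicate block within lineage and 619 to 790. Against untreated explants the 61 neural calls became 838 with DESeq2 and 21 to 102 without 1 library, and the 2198 endoderm calls 4153 with DESeq2, 1352 with the replicate block and 1029 to 2282. The 293 called list rows of 663 stayed within 244 to 334 where homeologs were kept apart, and 180 list genes were called with homeologs summed. Summing homeologs reversed 3 of the rows in the text, each a pair whose copies differed in opposite directions, to -1.59 for foxi4.2, -2.13 for slc2a1 and -0.71 for prdm1, which was then not called (adjusted p = 0.064). Of the 135 rows in the text, the call was lost by 4 with the block (ca14.L, irx3.L, junb.L and smad4.1.S), by 11 with all 12 stage 10.5 libraries in the fit (ddit4.L, dusp5.L, dusp6.S, egr1.L, fos.S, grhl1.S, myod1.L, plin2.S, prdm1.S, szl and tfap2a.S), by 6 with no filter (actb, ca14.L, hsp90aa1.1.L, irx3.L, smad4.1.S and zic1.L), by 5 of 132 with limma on TPM (LOC108705792, Xelaev18002981m, jun.S, myod1.L and slc2a1.S), by 1 with thinning (myod1.L) and by 4 with summed homeologs beside the 3 reversed (dusp6.S, myod1.L, plin2.S and prdm1.L), and otx1.L was called with DESeq2 alone (adjusted p = 0.03). The block for the list rows, and the omission of libraries for every count other than the 2760, were chosen after seeing the data. The cause of these changes was not tested. Genes with few counts in 1 group have folds that the floor limits, and the design, as the study describes it, cannot separate ligand, medium and experiment.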
